A study of Mus musculus with 26 samples.

Results

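Acute cocaine was compared with baseline in D1 medium spiny neurons (MSNs) through the ATAC-seq peak lists of both groups. The D1 SC list (acute cocaine, 4 libraries) held 28310 peaks on chromosomes 1 to 19 and X, and the D1 SS list (baseline, 2 libraries) held 28568. Together these are 56878 of the 399299 peaks in the 8 lists of the series. A peak was called shared when it overlapped a peak of the other list by at least 1 bp, and SC-only or SS-only when no peak of the other list lay within 1 kb. By this rule 20804 D1 SC peaks (73.5%, 95% interval 73.0 to 74.0%) were shared, 6476 (22.9%, 22.4 to 23.4%) were SC-only and 1030 lay within 1 kb without overlap. In the D1 SS list 20191 peaks (70.7%, 70.1 to 71.2%) were shared, 7669 (26.8%, 26.3 to 27.4%) were SS-only and 708 lay within 1 kb without overlap. Intervals throughout are exact Clopper-Pearson intervals and cover counting error only.

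The nuclei came from mouse brain, from the nucleus accumbens per the series title. The series design gives 4 states in D1 and in D2 MSNs: SS (baseline), SC (acute cocaine), CS (prolonged withdrawal after chronic cocaine) and CC (cocaine relapse). The other groups were D1 CS and D1 CC with 4 libraries each, D2 CS with 8, D2 SS with 2, and D2 SC and D2 CC with 1 each. The labels give no strain, genotype, age, sex, dose or interval, and no method by which D1 and D2 nuclei were separated. Each group has 1 list of peaks and no column per library, so no difference between lists has a replicate error or a test, and every value describes these lists.

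In ATAC-seq a transposase inserts sequencing adapters into DNA that nucleosomes leave accessible, so that peaks mark open promoters, enhancers and other regulatory DNA. MSNs are the inhibitory projection neurons of the striatum. D1 MSNs carry the dopamine receptor Drd1, which raises cAMP, and D2 MSNs carry Drd2, which lowers it. Cocaine blocks the dopamine transporter, and the dopamine that accumulates drives D1 receptor signalling and a fast wave of immediate-early gene transcription.

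Promoter DNA under the peaks is shown first for 4 of the strongest SC-only peaks, to let a reader see that some of them hold bases found in other promoters too. Sequences run 5′ to 3′ on the strand of the gene, cover the 250 bases before the RefSeq start (build GRCm38.p6), and have in capitals the bases that lie in 20-base words also held by another, non-overlapping promoter window.
Zfp781 (chr10:81930513-81930762, - strand): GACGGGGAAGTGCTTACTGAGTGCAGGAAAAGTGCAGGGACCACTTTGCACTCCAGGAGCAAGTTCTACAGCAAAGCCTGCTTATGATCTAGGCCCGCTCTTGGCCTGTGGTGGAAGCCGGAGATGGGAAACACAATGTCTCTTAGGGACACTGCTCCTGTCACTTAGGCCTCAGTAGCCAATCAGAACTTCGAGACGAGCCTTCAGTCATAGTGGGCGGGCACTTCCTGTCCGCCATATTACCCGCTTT
Gm3055 (chr10:81771175-81771424, - strand): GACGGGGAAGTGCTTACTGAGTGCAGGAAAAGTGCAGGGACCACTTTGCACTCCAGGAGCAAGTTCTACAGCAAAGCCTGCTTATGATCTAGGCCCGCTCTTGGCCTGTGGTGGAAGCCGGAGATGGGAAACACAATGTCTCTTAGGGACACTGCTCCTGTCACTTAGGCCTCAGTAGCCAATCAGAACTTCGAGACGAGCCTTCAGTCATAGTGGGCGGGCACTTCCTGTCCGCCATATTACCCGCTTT
Zfp433 (chr10:81704575-81704824, + strand): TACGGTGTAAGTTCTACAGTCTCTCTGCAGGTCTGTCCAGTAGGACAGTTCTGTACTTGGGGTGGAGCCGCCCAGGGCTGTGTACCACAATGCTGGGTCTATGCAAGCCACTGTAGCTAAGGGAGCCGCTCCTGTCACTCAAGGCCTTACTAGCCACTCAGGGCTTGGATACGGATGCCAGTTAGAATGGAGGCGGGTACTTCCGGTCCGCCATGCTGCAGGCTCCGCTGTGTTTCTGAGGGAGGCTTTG
Srp54b (chr12:55154854-55155103, + strand): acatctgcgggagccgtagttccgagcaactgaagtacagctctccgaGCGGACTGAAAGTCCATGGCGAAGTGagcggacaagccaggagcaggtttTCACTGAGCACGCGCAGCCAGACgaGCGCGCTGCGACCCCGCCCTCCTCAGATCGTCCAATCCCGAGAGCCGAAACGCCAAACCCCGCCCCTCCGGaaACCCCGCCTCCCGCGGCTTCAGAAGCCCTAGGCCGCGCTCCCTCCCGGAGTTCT
Over the whole 300 bp window, which also holds the 50 bases after the start, the zinc finger gene Zfp781 and Gm3055 were 100% identical over 300 aligned bp. The Zfp433 window matched that of Gm32687 with 99.6% identity over 257 aligned bp, and the window of Srp54b, a gene of the signal recognition particle, matched that of 2700097O09Rik with 96.0% identity over 251.

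A second set of windows shows promoters that were not copied: 3 under SC-only peaks and 1 under an SS-only peak. Capitals mark matches on either strand to a motif. The motif is TGACGTCA (the cAMP response element) for Gpr6 and CACGTG (the E-box) for Oprd1. For Setdb1 and Prps1 it is CCGGAAG (bound by ETS factors). A window counted as under a peak when it overlapped the peak by at least 1 bp. The Gpr6 peak (chr10:41072401-41072668) covers only a part of its window, and the match lies outside the peak.
Gpr6 (chr10:41072291-41072540, - strand): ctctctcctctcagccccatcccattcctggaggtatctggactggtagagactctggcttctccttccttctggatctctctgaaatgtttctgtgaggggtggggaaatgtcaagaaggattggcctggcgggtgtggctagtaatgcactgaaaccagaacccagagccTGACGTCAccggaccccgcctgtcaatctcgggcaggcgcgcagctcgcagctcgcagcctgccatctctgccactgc
Oprd1 (chr4:132144487-132144736, - strand): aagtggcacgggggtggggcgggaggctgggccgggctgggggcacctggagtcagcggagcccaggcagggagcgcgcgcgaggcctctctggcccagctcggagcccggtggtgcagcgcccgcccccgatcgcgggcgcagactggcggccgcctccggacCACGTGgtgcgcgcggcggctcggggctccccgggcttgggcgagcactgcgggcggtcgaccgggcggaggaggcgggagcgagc
Setdb1 (chr3:95357203-95357452, - strand): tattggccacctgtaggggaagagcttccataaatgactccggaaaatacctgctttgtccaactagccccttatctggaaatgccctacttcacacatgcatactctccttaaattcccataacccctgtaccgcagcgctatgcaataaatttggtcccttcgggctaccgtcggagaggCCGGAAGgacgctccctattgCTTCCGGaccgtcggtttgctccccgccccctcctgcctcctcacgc
Prps1 (chrX:140456353-140456602, + strand): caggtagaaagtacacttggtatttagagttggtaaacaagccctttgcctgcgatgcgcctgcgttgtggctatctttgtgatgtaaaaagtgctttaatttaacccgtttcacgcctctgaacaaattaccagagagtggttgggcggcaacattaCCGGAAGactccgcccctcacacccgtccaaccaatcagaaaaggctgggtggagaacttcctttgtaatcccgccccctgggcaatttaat
Gpr6 encodes an orphan receptor and Oprd1 the delta opioid receptor, both used as D2 MSN markers, Setdb1 a histone H3K9 methyltransferase, and Prps1 an enzyme of nucleotide synthesis. All 8 windows were chosen after the peak values were seen, and the last 4 were picked because they hold a match, so nothing is read from its presence. Among all 32619 windows the response element occurred in 1.80%, the E-box in 7.20% and the ETS motif in 8.92%. A match is a description of the letters and not a site.

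D1 SC and D1 SS differ in more than the state. The labels give 4 libraries for D1 SC and 2 for D1 SS, and the 8 lists divide into those of 4 or 8 libraries (D1 SC, D1 CS, D1 CC, D2 CS) and those of 1 or 2 (D1 SS, D2 SS, D2 SC, D2 CC). The first kind held 71 to 144 peaks on patch scaffolds, which are alternate sequences added to the assembly, and the second kind 4 to 7. The 1st percentile of the authors' fold enrichment, each on its list's own scale, was 3.44 in D1 SC and 2.89 in D1 SS. Read totals are not in the lists, so the depth behind them is unknown. A background pileup estimated from the steps between fold values was 4.12 in D1 SS, where it explained 95.8% of frequent folds, and 1.15 in D1 SC, where it explained 51.5%. The D1 SC estimate is therefore unreliable, and the method was revised once after its values were seen. Both lists covered similar lengths, 13.9 Mb and 14.2 Mb. Every comparison of D1 SC with D1 SS crosses the division by number of libraries, so acute cocaine and that division cannot be told apart. Fewer nuclei of a type and less accessible DNA per nucleus also cannot be told apart in these bulk libraries.

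Peaks present in a single list were mostly weak and narrow. The authors' fold, a ratio over the peak caller's background, had a median of 5.10 for SC-only peaks (quartiles 4.46 and 5.85) against 6.52 for shared peaks of the same list. For SS-only peaks the median was 3.96 (3.51 and 4.49) against 4.95 for shared peaks of D1 SS. Median widths were 255 bp for SC-only, 350 bp for SS-only and 571 bp for shared D1 SC peaks, where the narrowest peak of either list was 200 bp. When the peaks of a list were divided by fold into 4 equal groups, of the weakest group of D1 SC, 41.9% (40.7 to 43.0%) were SC-only, and of the strongest group 3.86% (3.42 to 4.33%). For D1 SS the same shares of SS-only peaks were 44.7% (43.5 to 45.8%) and 6.10% (5.56 to 6.69%).

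Around the limit of 1 kb the values were as follows. The 156 D1 SC peaks that lay over 500 and up to 1000 bp from the nearest D1 SS peak had a median fold of 4.25 and 95 were at promoters. The 78 peaks just outside, at up to 1500 bp, had a median fold of 4.23 and 39 were at promoters. For D1 SS the 123 peaks inside had 3.42 with 33 at promoters, and the 107 just outside 3.53 with 16. Median fold differed little across the limit, and promoter peaks were a smaller part outside it in both lists.

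The sets differed in where their peaks lay. Promoters, here the authors' classes up to 1 kb from a transcription start (TSS), held 36.3% (35.2 to 37.5%) of SC-only peaks and 6.44% (5.90 to 7.01%) of SS-only peaks, against 49.9% of shared D1 SC peaks and 50.8% of shared D1 SS peaks. SS-only peaks lay instead in gene bodies (43.4%, 42.3 to 44.6%) and in intergenic DNA (44.0%, 42.9 to 45.2%). For SC-only peaks those shares were 33.4% and 23.1%, and for shared D1 SC peaks 24.0% and 21.7%. Intervals of SC-only and SS-only peaks did not overlap in any of these 3 classes. Seen from the lists, 17.7% (17.1 to 18.4%) of the 13296 promoter peaks of D1 SC were SC-only, while 4.49% (4.11 to 4.90%) of the 10998 promoter peaks of D1 SS were SS-only.

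**Figure D1:**
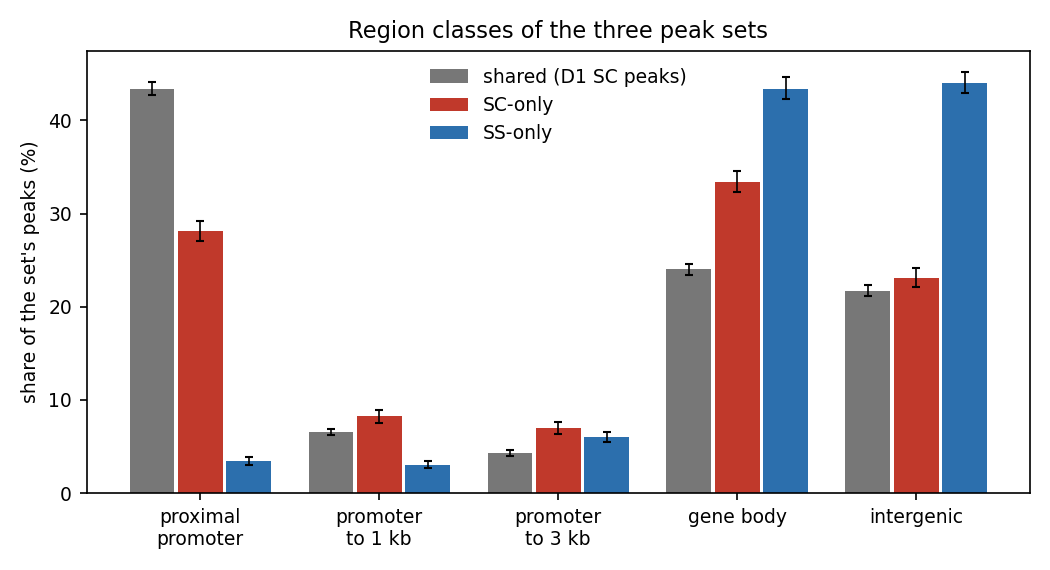
Share of the peaks of each set (y axis, percent) in 5 region classes of the authors (x axis), with exact 95% intervals. In the proximal promoter, within 250 bp of a TSS, SC-only peaks have 28.1%, between 43.4% for shared D1 SC peaks and 3.42% for SS-only peaks.

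The promoter share moved with strength in opposite directions. Among SC-only peaks it was 34.3% in the weakest group of the list and 66.7% in the strongest. Among SS-only peaks it was 8.46% in the weakest group and 2.52% in the strongest, although 55.0% of all D1 SS peaks of that group were at promoters. For all D1 SC peaks of the strongest group the promoter share was 74.6%.

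**Figure D2:**
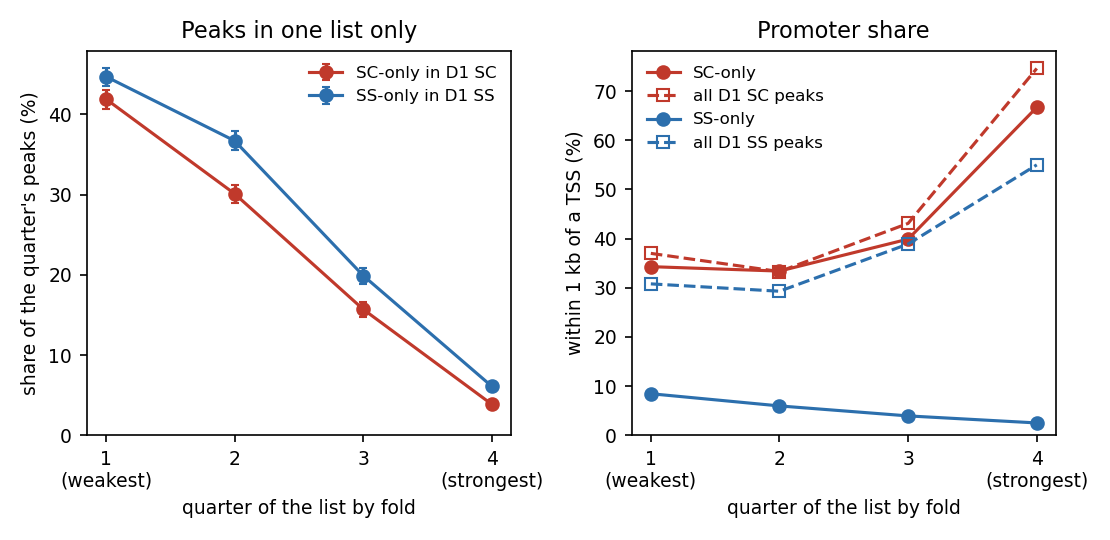
Left, share of each group of the list by fold (x axis) that was SC-only or SS-only, in percent with exact 95% intervals. Right, percent of peaks within 1 kb of a TSS for SC-only and SS-only peaks (filled) and all peaks of the list (open). SC-only shares run from 41.9% to 3.86%, and the promoter share of SS-only peaks ends at 2.52%.

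Distances to the annotated TSS gave the same picture. Among peaks to which the authors gave a distance, the median was 1388 bp for SC-only, 28581 bp for SS-only and 167 bp for shared D1 SC peaks. No distance was given for 1503 SC-only and 3382 SS-only peaks. Within promoters, 45.2% of SC-only peaks and 29.8% of SS-only peaks lay within 100 bp of the TSS, against 63.3% of shared D1 SC peaks. Within gene bodies, the median distance was 30.9 kb for SC-only, 51.8 kb for SS-only and 41.4 kb for shared D1 SC peaks, and 32.9% of SS-only against 20.8% of SC-only gene-body peaks lay over 100 kb into the gene.

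Most peaks of each set were also present in at least 1 of the other 6 lists. Of the SC-only peaks 139 (2.15%) were in none of them, and of the SS-only peaks 88 (1.15%). In D1 CC, the longest list, 95.4% of SC-only and 91.0% of SS-only peaks were found. Lists of other groups differed more: D1 CS held 82.5% (81.6 to 83.4%) of SC-only and 57.6% (56.5 to 58.7%) of SS-only peaks, and D2 CS 45.2% (44.0 to 46.4%) of SC-only and 1379 (17.1 to 18.9%) of SS-only peaks. In the D2 SS list, the baseline of the other cell type, 78.1% (77.0 to 79.1%) of SC-only and 94.2% (93.6 to 94.7%) of SS-only peaks were found. In D2 SC they were 71.9% and 92.5%, and in D2 CC 80.5% and 96.1%. The 3 other lists of 1 or 2 libraries, all from D2 nuclei, each held a larger share of the SS-only set. The 3 other lists of 4 or 8, which are D1 CS, D1 CC and D2 CS, each held a larger share of the SC-only set.

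**Figure D3:**
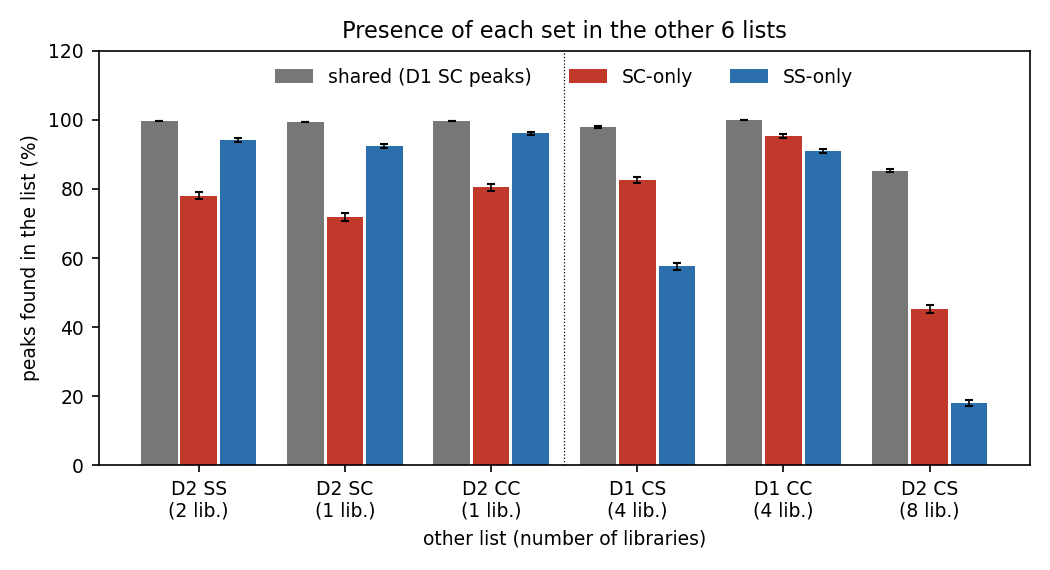
Percent of shared, SC-only and SS-only peaks (bars, exact 95% intervals) that overlap a peak of each other list (x axis, number of libraries in brackets). Left of the dotted line SS-only peaks are found more often than SC-only peaks, as in D2 SS with 94.2% against 78.1%, and right of it less often, as in D1 CS with 57.6% against 82.5%.

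Both kinds of list together held 5500 SC-only peaks (84.9%). Another 753 (11.6%) were in lists of 4 or 8 libraries alone and 84 in lists of 1 or 2 alone. All 6 other lists held 2170 SC-only peaks (33.5%, 32.4 to 34.7%), of which 53.3% were at promoters. These were sites present in every list of the series except D1 SS. Exactly the 3 other lists of 4 or 8 libraries, with none of 1 or 2, held 336 (5.19%, 4.66 to 5.76%), with a median fold of 6.44 and 58.9% at promoters. For SS-only peaks, 6971 (90.9%) were in both kinds of list, 69 in lists of 4 or 8 libraries alone and 541 (7.05%) in lists of 1 or 2 alone. All 6 other lists held 1211 (15.8%, 15.0 to 16.6%). The 3 other lists of 1 or 2 libraries and no list of 4 or 8 held 385 (5.02%, 4.54 to 5.53%), of which 2.08% were at promoters. With the lists cut to equal length, the share of SC-only peaks in exactly the 3 other lists of 4 or 8 libraries was 12.4% and that of SS-only peaks in all 6 other lists was 6.44%.

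Strong SC-only peaks showed the division more than strong SS-only peaks. Of the 20 SC-only peaks with the highest fold, 18 were in exactly the 3 other lists of 4 or 8 libraries and in no list of 1 or 2, and 11 were at promoters. Of the 100 highest it was 58, and of the 500 highest 140. Of the 20 SS-only peaks with the highest fold, 12 were in all 6 other lists, 0 were in lists of 1 or 2 libraries alone and 2 were at promoters. Of the 500 highest SS-only peaks 6 were in lists of 1 or 2 libraries alone, against 7.05% of the whole set. Those 18 SC-only peaks were thus absent from D2 SS and D2 SC alike, and those 12 SS-only peaks were missing from D1 SC alone.

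The named SC-only promoter peaks were the 8 of highest fold, 1 per gene. Gm24187 (chr13:9834077-9834730) had a fold of 16.7, Zfp433 (chr10:81704421-81705274) 13.9, Gm24270 (chr9:56223390-56224167) 13.4 and Zfp97 (chr17:17120792-17121681) 13.3. AC172027.3 had 12.5, Zfp781 (chr10:81930063-81930873) 12.3, Gm3055 (chr10:81770655-81771531) 12.1 and the peak assigned to Srp54a by the authors (chr12:55154699-55155648) 11.8. The RefSeq window under that last peak belongs to Srp54b, so the name is uncertain. In the other lists of 4 or 8 libraries Zfp433 had folds of 11.6 (D1 CS), 12.6 (D1 CC) and 10.7 (D2 CS). For Zfp781 these were 10.6, 14.2 and 8.59. Of the 8 peaks 7 had no overlapping peak in any list of 1 or 2 libraries, and Gm24270 had one in D2 SS (4.06) and in D2 CC (3.79). The promoter windows of Zfp781, Gm3055, Zfp433 and Srp54b are those printed in the first set of sequences. How the authors treated reads that fit several places is not given in the sources used here, so the values of these genes are uncertain.

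In gene bodies the strongest SC-only peaks were named for Gnb1l (fold 14.1), the dynein gene Dnah7b (10.9), the GTPase-activating protein gene Arhgap21 (10.6) and Rsph3b (9.67), each again in the lists of 4 or 8 libraries alone. The peak in Atf2 (chr2:73868032-73868255), which encodes a bZIP factor that binds cAMP response elements, had a fold of 8.72 and the same pattern. Others were in more lists: Rasal2, a Ras GTPase-activating protein gene, had 9.46 in D1 SC, 7.73 in D2 SC and 6.36 in D2 SS, and Acss1 9.46, 3.10 and 5.32. Both sites also had a peak in baseline D2 nuclei. Of the 6 named intergenic peaks, the highest (chr6:44792699-44793443) had a fold of 13.6 in D1 SC and 13.7 in D2 CS, and 5 of the 6 were in the lists of 4 or 8 libraries alone.

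The named SS-only peaks in gene bodies and between genes recurred across the series. D5Ertd579e (chr5:36660887-36661455) had a fold of 8.40 in D1 SS and 7.84, 7.48, 6.86, 5.56, 6.12 and 5.28 in D2 SC, D2 SS, D2 CC, D1 CS, D1 CC and D2 CS. The formin gene Diaph2 (chrX:129757670-129758440) had 7.62 in D1 SS and 4.35 to 8.82 in the other 6. Of the 8 named gene-body peaks 6 were in all 6 other lists and 2, in Mettl21e and Adgrv1, were in 5. The highest intergenic SS-only peak (chr11:18323785-18324553) had a fold of 9.91 in D1 SS and, among the other 6 lists, 10.3 in D2 CC and 5.59 in D2 CS. Sites found in all 6 other lists had a peak at baseline, in withdrawal and in relapse in D1 nuclei and in every D2 state, and none in D1 SC.

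Among the 8 named SS-only promoter peaks, the highest, at Gm26354 (fold 8.73) and Gm4294 (8.40), lay outside the proximal promoter. Of these 8, the closest to a start were Gprasp1 (chrX:135742435-135742894, fold 5.86), which encodes a sorting protein for G protein-coupled receptors, Prps1 (chrX:140456257-140456890, 5.86) and Fap, a serine protease gene (chr2:62503228-62503801, 5.68). Prps1 was found in all 6 other lists with folds of 7.28 to 8.29, and Gprasp1 with 6.45 to 8.12.

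Some SC-only peaks without counterparts in lists of 1 or 2 libraries were bunched along chromosomes. After the data were seen, stretches were sought in which no list of 1 or 2 libraries had any peak and at least 4 SC-only peaks lay. There were 28, with 192 SC-only peaks (2.96% of all), 118 of them at promoters, and a median of 252.6 kb between the flanking peaks of the other lists. The mirror search, for SS-only peaks in stretches empty of every list of 4 or 8 libraries, found 0. Auts2, a neurodevelopmental gene that also had the most SC-only peaks of any gene, spans chr5:131437333-132543220. It held 13 peaks in D1 SC, 36 in D1 CS, 49 in D1 CC and 13 in D2 CS, and 0 in each of the 4 lists of 1 or 2 libraries. Other stretches took in Dgcr8 and Rtn4r on chromosome 16 (12 SC-only peaks), Jund and Rab3a on chromosome 8 (12), Men1, Rasgrp2 and Nrxn2 on chromosome 19 (11), Rims1 on chromosome 1 (6), and 4 histone genes on chromosome 13 (4). Auts2 thus had peaks in every list of 4 or 8 libraries, at withdrawal in both cell types as after acute cocaine in D1, and in no list of 1 or 2.

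Copied promoter sequence was most frequent under peaks with the same pattern across lists. A window was called copied when at least 150 of its 300 bases lay in 20-base words shared with another window, counting words held by at most 50 windows. Of the 150 windows under SC-only peaks found in exactly the lists of 4 or 8 libraries, 62 were copied (41.3%). Of the 1130 windows under SC-only peaks also found in a list of 1 or 2 libraries, 39 were (3.45%). Shared peaks covered 9612 windows with 0.749% copied and SS-only peaks 176 with 1.14%, and among all windows it was 7.21%. Patch-scaffold peaks numbered 74 in D1 SC and 4 in D1 SS, which are counts per list and not per set. Their part in the copied shares was not tested. The copy measure was also chosen after the data were seen.

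**Figure D4:**
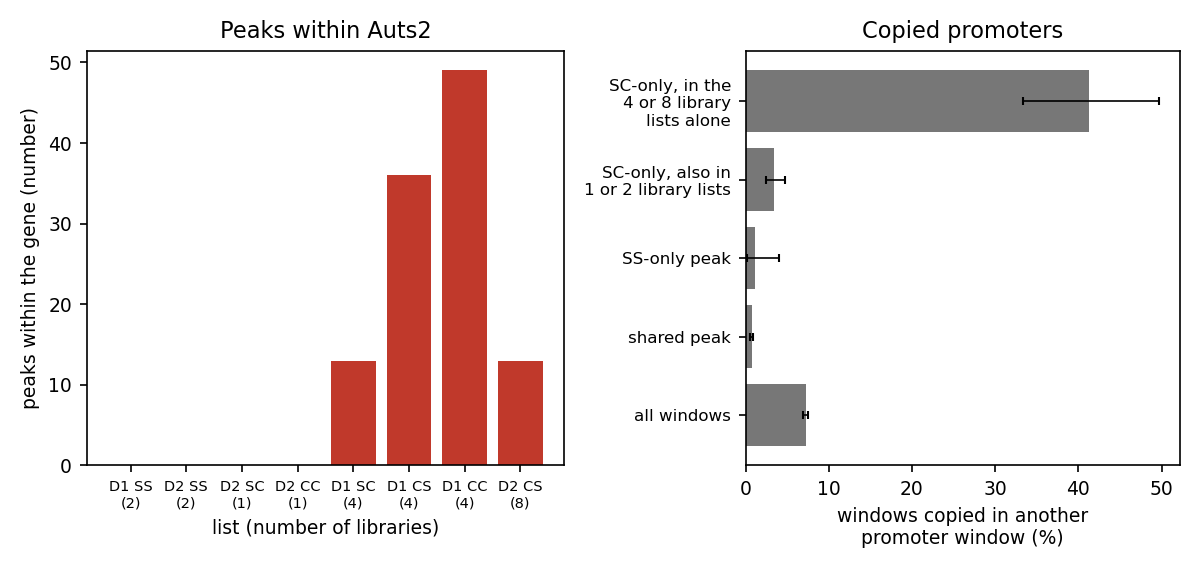
Left, number of peaks within Auts2 in each list (x axis, number of libraries in brackets), 0 in the 4 lists of 1 or 2 libraries and 13 to 49 in the others. Right, percent of RefSeq promoter windows that are copied, with exact 95% intervals, by the kind of peak over them, from 0.749% for shared peaks to 41.3% for SC-only peaks in the lists of 4 or 8 libraries alone.

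D2 SC and D2 SS, with 1 and 2 libraries, give the same contrast of states within lists of few libraries. Of the SC-only peaks, 4392 (67.8%) were in both D2 lists and 1155 (17.8%) in neither. Peaks in D2 SC and not in D2 SS, which have the direction of D1, numbered 266 (4.11%, 3.64 to 4.62%), and peaks in D2 SS and not in D2 SC, the opposite direction, numbered 663 (10.2%). Of the SS-only peaks, 306 (3.99%, 3.56 to 4.45%) were in D2 SS and not D2 SC, the direction of D1, and 181 (2.36%, 2.03 to 2.73%) the other way. The whole D2 lists lean the same way, since 17.9% of D2 SS peaks were not in D2 SC and 12.9% of D2 SC peaks were not in D2 SS. For SC-only peaks the D2 lists therefore leaned against the D1 direction, and for SS-only peaks with it.

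Among the peaks in both SC lists and in neither SS list, an intergenic peak on chr10:81996638-81997579 had a fold of 11.9 in D1 SC and 4.74 in D2 SC, a peak in 4930417H01Rik 9.54 and 5.11, and a peak in the drug transporter gene Abcb1b (chr5:8820246-8820913) 6.92 and 5.29. All 3 were also in D2 CC, D1 CS, D1 CC and D2 CS. In the reverse direction Akirin1 (chr4:123733440-123734123) had 5.22 in D1 SS and 3.08 in D2 SS, and the neurexin-family gene Cntnap5b (chr1:100465173-100465582) 5.04 and 3.49. A peak near St18 (chr1:6800126-6800639), a zinc finger gene, had 4.92 and 3.27, and apart from D1 SS and D2 SS was in D1 CC alone.

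Peaks found in no other list were few and small. The 139 SC-only peaks in no other list had a median fold of 4.55 and a median width of 207 bp, and 18.7% were at promoters. Among the 6 strongest were Kcnip1 (chr11:33754719-33754935, fold 6.42), which encodes a regulator of A-type potassium channels, and Gm11512 (6.52). Of the 88 SS-only peaks in no other list 5.68% were at promoters. The strongest of them lay in Gm28905 (fold 5.86).

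Chromosomes differed in which set they carried. Chromosome 7 had 461 SC-only and 142 SS-only peaks, or 3.25 SC-only per SS-only peak, followed by chromosome 19 (2.25) and 17 (2.17). On chromosome 3 there were 298 and 630 (0.473), on 18 the ratio was 0.505 and on 10 it was 0.523. Chromosomes with more protein-coding genes per Mb had higher ratios, with a Spearman rank correlation of 0.86 across the 20 chromosomes. The chromosomes come from the same 2 lists and share their libraries, so this is a description.

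**Figure D5:**
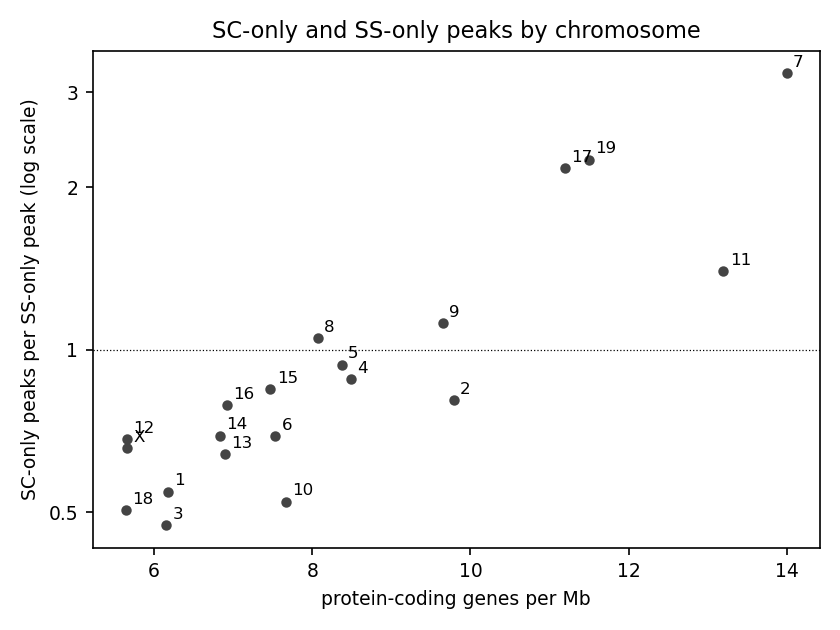
SC-only peaks per SS-only peak (y axis, log scale) against protein-coding genes per Mb in RefSeq (x axis), 1 point per chromosome. Chromosome 7 with 14.0 genes per Mb has the highest ratio, 3.25, and chromosome 3 with 6.15 the lowest, 0.473.

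By gene name, 3768 of the 21532 genes named in any list (17.5%) had an SC-only peak and 2789 (13.0%) an SS-only peak, and 739 had both. An SC-only promoter peak was found in 2103 genes (9.77%) and an SS-only promoter peak in 473 (2.20%). Of the former, 1834 had no shared promoter peak. Genes with SS-only peaks in their bodies were longer, with a median length of 133.1 kb. It was 97.1 kb for SC-only and 102.5 kb for shared gene-body peaks, where 91.8 to 94.8% of the genes had a length. For all genes named in any list the median was 21.8 kb, with a length for 83.9%. There were 95 genes with 5 or more SS-only peaks and 32 with 5 or more SC-only peaks. After Auts2 the genes with most SC-only peaks were Ptprn2 (10, with 3 SS-only), the calcium channel gene Cacna1c (9, with 1) and Csmd1, Dlg2, Msra and Myo16 (7 each). Those with most SS-only peaks were Cntn4 (14, with 0 SC-only), Lingo2, Magi2 and Ptprd (13 each) and Elmo1, Gpc6, Lrrc4c and Pcdh15 (11 each).

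Marker genes of the cell types were examined first. Drd1 had 1 peak in D1 SC and in D1 SS, shared, and 1 or 2 in each other list, so its presence does not separate the cell types here. Among the 10 D1 MSN markers, 9 had a shared peak, 1 had an SC-only peak and 3 had SS-only peaks. The SC-only peak was a promoter peak of the opioid peptide gene Pdyn (fold 3.82) found in no other list. The SS-only peaks lay in the transcription factor genes Ebf1 (2 peaks), Eya1 (2) and Zfp521 (3), and all 3 genes had such peaks in lists of 4 or 8 libraries too. D2 MSN markers went the other way. Of the 9 named in any list 7 had an SC-only peak, 6 of them at a promoter, and 0 had an SS-only peak. All genes had 17.5% with an SC-only peak (9.77% at a promoter) and 13.0% with an SS-only peak.

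Of the 6 D2 MSN markers with an SC-only promoter peak, all but Six3 had a peak at that site in D2 SS as well. At Gpr6 the proximal promoter peak (chr10:41072401-41072668) had a fold of 5.12 in D1 SC, 4.36 in D2 SS and 4.86 in D2 SC. At Oprd1 (chr4:132144372-132144872) these were 5.56, 4.85 and 5.32. The transcription factor gene Sp9 had a promoter peak (chr2:73271603-73272150) with 4.35, 4.86 and 4.61, and Ttc12 with 4.79, 2.49 and 2.75. For the kainate receptor gene Grik3 (chr4:125490163-125490362) they were 5.36, 4.36 and 3.82. Drd2 had 2 gene-body peaks in D1 SC, with folds of 6.97 and 3.30, that were found in all 6 other lists. The Six3 promoter peak (fold 4.34) was found in D2 CC and D1 CC alone. For all 7 genes an SC-only peak was also found in a list of 1 or 2 libraries. Adora2a had no peak in D1 SC or D1 SS, and Penk had 1 shared peak. The promoter sites named at Gpr6, Oprd1, Sp9 and Grik3 also had peaks in D1 CS (4.11, 4.12, 4.40 and 3.43). In D1 CC these were 4.87, 5.09, 4.99 and 4.00. Of the 9 markers named in any list, 1 had a peak of any kind in D1 SS, against 8 in D1 SC. In D1 CS it was 8, and in D1 CC and each D2 list 9. The part of D2 nuclei in the D1 SC libraries was not tested.

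Markers of non-neuronal cells were in both sets, in small lists. SC-only peaks were at 1 of 10 astrocyte, 2 of 9 oligodendrocyte lineage and 1 of 6 vascular markers, and SS-only peaks at 2, 0 and 2, where all genes had 17.5% and 13.0%. Named examples were the oligodendrocyte genes Cnp (fold 3.32) and Pdgfra (5.00) in SC and the astrocyte genes Gfap (3.24) and Slc1a2 (4.92 and 5.08) in SS. The Slc1a2 peaks were in 5 other lists each.

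Immediate-early genes were mostly shared. Among all genes, 17.5% had an SC-only peak (9.77% at a promoter) and 13.0% an SS-only peak. Of 16 rapid immediate-early genes, 14 had a shared peak, 3 (18.8%) had an SC-only promoter peak and 0 had an SS-only peak. The 3 encode Fos, Fosb and Egr3, transcription factors induced by neuronal activity. At Fos (chr12:85473614-85474117) D1 SC had a fold of 5.52, and all 6 other lists had a peak, with 3.34 in D2 SS and 4.32 in D2 SC. The Fosb peak (5.66) was found in D2 SS at 3.87, and the Egr3 peak (3.33) at 2.75. Each site thus had a peak in baseline D2 nuclei. Fos lacked one in D1 SS alone, and Fosb and Egr3 lacked one in D2 CS too. Among 14 delayed activity-regulated genes 3 (21.4%) had SC-only peaks, each with one at a promoter (Vgf, Cdkn1a, Sorcs3), and 6 (42.9%) had SS-only peaks, against 17.5% and 13.0% of all genes. The SS-only peaks included promoter peaks of the prohormone convertase gene Pcsk1 (4.10) and of Pthlh (3.91, in all 6 other lists).

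Dopamine and cAMP signalling genes carried both kinds. SC-only peaks were at 9 of 16 (5 at promoters) and SS-only peaks at 6 (2 at promoters), where all genes had 17.5% (9.77% at promoters) and 13.0% (2.20%). SC-only promoter peaks lay at Ptpn5, the striatal tyrosine phosphatase STEP (5.30 and 4.35), at the protein kinase A subunit gene Prkacb (4.19) and at the phosphodiesterase gene Pde1b (3.49, in all 6 other lists). The phosphodiesterase genes Pde4b and Pde4d had 6 and 11 SS-only peaks against 3 and 2 SC-only peaks. Of 25 regulators linked to cocaine in earlier work, 6 had SC-only and 4 had SS-only peaks, shares near the 17.5% and 13.0% of all genes. The Setdb1 promoter (chr3:95356711-95357493) had a fold of 6.20 in D1 SC and 4.76 to 7.64 in all 6 other lists, and no D1 SS peak.

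Genes of receptors and channels are read beside the whole lists, in which gene bodies held 3331 SS-only and 2166 SC-only peaks. They are also read beside the 13.0% and 17.5% of all genes with such peaks. The part of gene length, given above for all genes, was not tested here. Glutamate receptor genes had SS-only peaks in 16 of 17 cases and SC-only peaks in 9, with 41 and 21 peaks. The delta receptor gene Grid1 had 8 SS-only peaks against 2 SC-only, and the metabotropic receptor gene Grm8 had 7 against 1. Gria1, an AMPA receptor gene, went the other way with 6 SC-only peaks and 1 SS-only, including a promoter peak (chr11:57011422-57012008, fold 5.12) in all 6 other lists. The promoter of Grin1, the obligatory NMDA receptor subunit, was SC-only (6.25) and in all 6 other lists as well. Among GABA-A receptor genes, 3 of 12 had SC-only and 5 had SS-only peaks, with 4 and 7 peaks. Voltage-gated channel genes had 14 and 16 of 22, with 38 and 50 peaks, a smaller excess of SS-only peaks than in gene bodies as a whole. Cacna1c (9 against 1) leaned to SC. The potassium channel regulator gene Kcnip4 (0 against 9) and the potassium channel gene Kcnd2 (0 against 7) leaned to SS.

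Adhesion and guidance genes held more SS-only than SC-only peaks. Of 28 synaptic adhesion genes 22 (78.6%) had SS-only and 15 (53.6%) had SC-only peaks. These were 127 and 27 peaks, against 3331 and 2166 gene-body peaks in the whole lists. Cadherin-related genes had 16 of 20 (80.0%) and 6 (30.0%), with 51 and 11 peaks. Axon guidance genes had 19 of 24 (79.2%) and 11 (45.8%), with 48 and 16. All genes had 13.0% and 17.5%, so both kinds of peak were above the share of all genes in each list. The contactin genes Cntn4 and Cntn5 had 14 and 8 SS-only peaks and 0 SC-only. Lrrc4c, a netrin-G ligand gene, had 11 and 0, the receptor phosphatase gene Ptprd 13 and 1, and Pcdh15 11 and 1. Some members held more SC-only than SS-only peaks: Tenm4 (5 against 3), Ptprt (3 against 2), Cdh13 (3 against 1), Cdh4 and Efna5 (2 against 0 each) and Nrg3 (1 against 0). Nrxn2 was another, with 2 SC-only peaks against 0, both in the stretch on chromosome 19 named above. In all 3 lists, every gene with an SS-only peak had one that was also found in a list of 4 or 8 libraries. SS-only gene-body peaks lay in longer genes over the whole list as well, as given above, and the part of gene length in these counts was not tested.

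Gene families with many copies were compared last. Histone genes had SC-only peaks in 15 of 61 cases (24.6%), 14 at promoters, and SS-only peaks in 0. Among all genes 17.5% had an SC-only peak (9.77% at a promoter) and 13.0% an SS-only peak. For 8 of the 15 the SC-only peak was also found in a list of 1 or 2 libraries. Hist1h4j (7.69) and Hist2h2aa2 (7.48) were in all 6 other lists, and Hist1h2ap (8.22) and Hist1h2bq (8.02) in 3. Zinc finger genes named Zfp had SC-only peaks in 62 of 365 (17.0%), close to the 17.5% of all genes, and SS-only peaks in 22. Promoter peaks were SC-only in 45 (12.3%) and SS-only in 4, against 9.77% and 2.20% of all genes. For 54 of the 62 an SC-only peak was also found in a list of 1 or 2 libraries. Ribosomal protein genes had SC-only peaks in 6 of 77 (7.79%) and SS-only peaks in 2 (2.60%). These were below the 17.5% and 13.0% of all genes for peaks of any class, but near the 9.77% and 2.20% for promoter peaks. All the peaks of ribosomal protein genes in both sets were at promoters, such as Rpl13 (SC-only, 7.06) and Rpl36 (SS-only, 2.96). Olfactory receptor genes had SC-only peaks in 0 of 53 and SS-only peaks in 8 (15.1%), near the 13.0% of all genes. These genes have near-identical relatives, so single values are uncertain. None of the 14 housekeeping genes had a peak in either set.

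Shared peaks included the strongest of both lists. By summed rank of fold the first was an intergenic site (chr12:3109650-3110306) with 20.2 in D1 SC, 16.4 in D1 SS and 17.1 to 18.7 in the other 6 lists. The adhesion gene Chl1 (chr6:103648904-103649512) had 17.0 and 13.4, and the promoter of Rpp40, a ribonuclease P subunit gene (chr13:35905798-35906594), 16.1 and 11.3. Of the shared D1 SC peaks 84.7% were in all 6 other lists, and 0 were in none of them.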

How the data were processed

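ATAC-seq libraries from mouse D1 and D2 MSN nuclei were deposited by the authors as 1 peak list per group, 8 lists for 26 libraries. The submitters' processing notes name cutadapt, HISAT, SAMtools, MACS2 and the build mm10, without versions or roles. Pooling of libraries ahead of peak calling, and how multiply placed reads were treated, are both not given in the sources used here. Per the file headers, each peak carries a fold enrichment (a ratio over local background) and a q-value, both the authors' own. The authors also deposited a region class, a signed distance in bp to the assigned transcript start and a gene name. No list has a column per library (0 such columns) and read depth is unknown, so there is no replicate error and no test. Fold is not scaled between lists, so folds of a site in several lists stand side by side as each list's own value and their sizes are not compared.

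Peaks on chromosomes 1 to 19 and X were intersected in Python 3.11.15 (pandas 2.3.3, numpy 2.4.6). Sharing needed an overlap of at least 1 bp, and absence meant no peak within 1 kb. Presence in a further list meant an overlap of 1 bp. For the D2 states, absence was first computed as none within 1 kb and then changed to no overlap. Shares carry exact Clopper-Pearson 95% intervals (scipy 1.17.1), which cover counting error only. The overlap steps were tested on simulated intervals, with 965 of 965 correct. Gene lengths and 300 bp promoter windows came from RefSeq, GRCm38.p6, with 32619 windows used, and copies were aligned with Biopython 1.88.

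Named genes were, in each direction, the 8 promoter, 8 gene-body and 6 intergenic peaks of highest fold, the 8 genes with most peaks, the 8 strongest peaks of both cell types, the 6 strongest in no other list, the 6 strongest shared peaks, and members of the gene lists and families. The members and lists were chosen with earlier results of these data known. The stretches, the copy measure, the count of peaks within Auts2 and the printed promoters, which replaced earlier candidates, were chosen after the values were seen. Motifs were searched in promoter windows alone. Some results on members of the gene lists are not reported here.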

Additional observations from a re-analysis of the deposited data

Results flagged for a closer look

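The D1 SC list held 74 peaks on patch scaffolds, which the comparisons leave out, against 4 in D1 SS, its baseline. They were singled out because a signal outside the main measurement was above its level in the control list. The other lists of 4 or 8 libraries held 115 (D1 CS), 144 (D1 CC) and 71 (D2 CS), and each D2 list of 1 or 2 libraries held 7. No test was possible with 1 list per group.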

How the results depend on the processing

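No paired analysis was possible because each group has 1 list and no column per library, and for the same reason no library could be left out. Of 84 alternative values for 10 results, 47 stayed within their limits and 37 moved. The median fold was 6.02 in D1 SC and 4.55 in D1 SS, each on its own scale, so a cut at 6 keeps a larger part of D1 SC. With a fold of at least 6 there were 1406 SC-only and 270 SS-only peaks, counts that cannot be set against each other. The shared shares were 89.2% (D1 SC) and 95.3% (D1 SS), and the promoter shares 45.0% and 1.11%. SC-only peaks in the other lists of 4 or 8 libraries and in no list of 1 or 2 made 13.7%, SS-only peaks in all 6 other lists 33.7%, and the D2 counts in the direction of D1 were 34 and 0. With a reciprocal overlap of 50% these were 12978 and 13236 peaks, 54.2% and 53.7% shared, an SS-only promoter share of 19.1%, 1.65%, 7.56%, 844 and 757. With q of at most 1e-05 the D1 SS shared share was 72.3%, the promoter shares 43.5% and 7.39%, the SS-only share in all 6 lists 16.7% and the D2 counts 164 and 141. With lists cut to equal length (27898 peaks) D1 SS shared 71.3%, and the others that moved were 12.4%, 6.44%, 450 and 635. With no overlap of 1 bp as the rule for absence, promoter shares were 38.7% and 8.94%, and the list patterns 4.62% and 17.4%. Promoters within 250 bp gave 28.1% and 3.42%. Without the 28 stretches, an alternative added after the data were seen, the SC-only pattern fell to 2.94%. Counting D2 absence as none within 1 kb, also added, gave 183 and 244. The promoter share of SC-only peaks was above that of SS-only peaks under each setting run. Unknown depth limits every absence, and the causes were not tested.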

Other observations

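Promoter windows under the sets differed in base composition. The mean GC content was 62.3% for the 1337 windows under SC-only peaks, 63.2% for the 9612 under shared peaks and 53.6% for the 176 under SS-only peaks, against 53.9% for all 32619 windows and 47.6% for windows under no peak. The AP-1 motif (TGACTCA or TGAGTCA), bound by Fos and Jun proteins, was in 3.96% of windows under SC-only peaks (53), 7.39% under SS-only peaks (13), 2.68% under shared peaks and 5.22% of all windows. The ETS motif (CCGGAAG) was in 15.6%, 11.9%, 20.3% and 8.92%, and the cAMP response element (TGACGTCA) in 2.84%, 2.84%, 3.88% and 1.80%. Both strands were searched. The counts under SS-only peaks are small, and matches describe letters and not binding.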
